A study of Homo sapiens with 14 samples.

Results

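A group of 56 developmental transcription factor genes outside the HOX clusters, listed as Polycomb targets, was followed in RNA sequencing of a squamous carcinoma line. Whether Polycomb proteins occupy these genes in this line was not examined. The members were taken by gene symbol, with no filter on expression, and all 56 of 56 were listed among the 63677 genes of each deposited table. They comprise 3 GATA factors, 4 SOX factors, 8 forkhead factors, 7 PAX factors, 6 T-box factors, 4 basic helix-loop-helix factors, 2 C2H2 zinc finger factors and 22 other homeobox factors. TBXT was left out. The symbol SOX7 has a second row, at 0 in all 12 libraries, whose identifier the reference gene table gives to PINX1, so the row ENSG00000171056 was used.

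Polycomb repressive complex 2 (PRC2) places methyl groups on lysine 27 of histone H3 through its catalytic subunit EZH2, or through EZH1, together with EED and SUZ12. Its best known targets are genes of lineage-determining transcription factors, whose promoters lie in CpG islands and which stay shut in cells of other lineages. An epithelial cell of the esophagus uses few of these factors, and most of them are known for building heart, kidney, brain, gonad, muscle or limb.

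KYSE510 is an esophageal squamous cell carcinoma line. The cells were transfected with small interfering RNA (siRNA) by lipofectamine RNAiMAX, and RNA was taken after 48 h. In the EZH2 series the groups were the negative control siNC, siEZH2-1 and siEZH2-2. In the LAT1 series they were a separate siNC, siLAT1-2 and siLAT1-3, directed at LAT1, the amino acid transporter encoded by SLC7A5. Every group had 2 libraries, which makes 12 in all, and the labels do not state whether the pair in each group was grown as separate cultures. All values are FPKM, in which reads or fragments are scaled to gene length and to sequencing depth, and each series was deposited as its own table.

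EZH2 itself stood at 17.05 and 17.1 FPKM with siNC, at 6.63 and 7.24 with siEZH2-1 and at 6.4 and 6.04 with siEZH2-2 (log2 change -1.26 ± 0.0577 SE, limma adjusted p = 0.000124). SLC7A5 stood at 407.18 and 413.39 FPKM with the siNC of the LAT1 series and between 80.36 and 107.08 in the 4 siLAT1 libraries (log2 change -2.11, limma adjusted p = 5.79e-07). EZH2 was not called in the LAT1 series (log2 change -0.06, limma adjusted p = 0.397). Depth recovered from the steps of low values was 21000000 to 27100000 reads or fragments per library in the EZH2 series and 12700000 to 16300000 in the LAT1 series. A level of 0.1 FPKM therefore rests on 2.1 to 2.7 reads per kilobase in the EZH2 series and on 1.3 to 1.6 in the LAT1 series. All 7 squamous markers (KRT5, KRT14, KRT6A, KRT17, TP63, SOX2 and DSG3) were at 1 FPKM or more in both tables, with KRT5 at a mean of 489.7 and 467.5 FPKM. Of 6 fibroblast, 6 immune, 4 endothelial and 6 neural markers, 1, 0, 0 and 1 reached 1 FPKM in the EZH2 table and 1, 0, 1 and 1 in the LAT1 table. In bulk RNA, fewer cells of a type and less RNA per cell cannot be told apart.

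Most of the 56 genes averaged under 1 FPKM in both tables, and most were silent in the EZH2 table only. With silent meaning a mean under 0.1 FPKM over the 6 libraries of a table, low a mean from 0.1 to under 1, and expressed a mean of 1 or more, the EZH2 table held 36 silent (64.3%), 9 low and 11 expressed members. The LAT1 table held 25 silent (44.6%), 13 low and 18 expressed members. Over 19809 genes with a protein-coding symbol, 44.3% were silent and 47.5% expressed in the EZH2 table, and 40.4% and 49% in the LAT1 table. The 39 HOX genes had 20 silent members in the EZH2 table and 16 in the LAT1 table, and 16 squamous transcription factors had 0 in either.

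**Figure D1:**
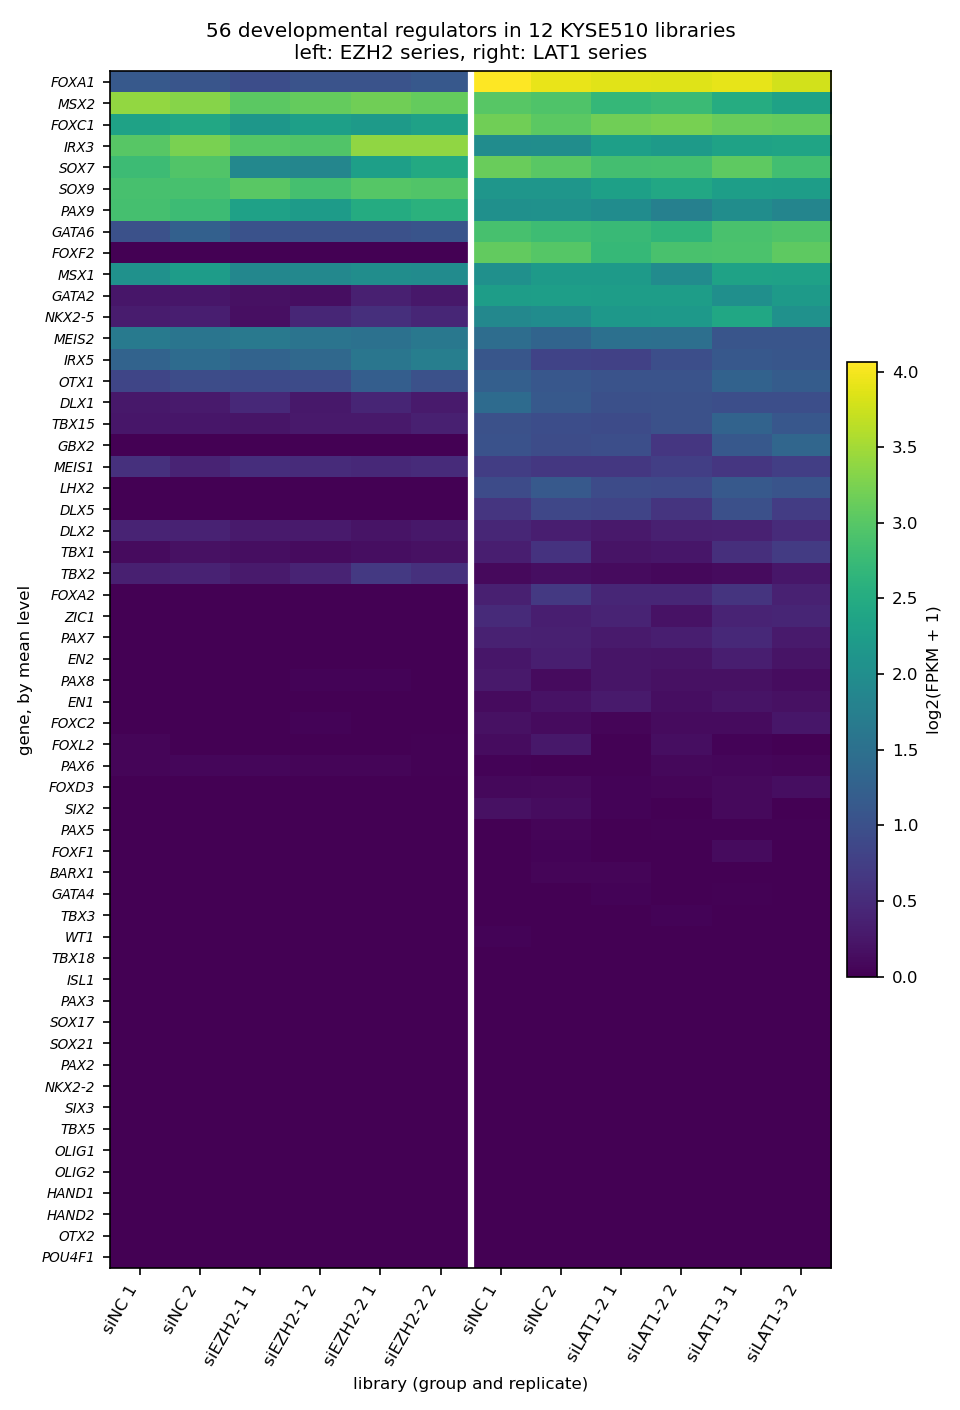
Level of each of the 56 genes (rows, ordered by mean level) in each of the 12 libraries (columns, EZH2 series left of the white line and LAT1 series right of it), as log2(FPKM + 1) by colour. The lower block of 25 genes is dark in all 12 libraries, and the separate rows of FOXF2, LHX2 and GBX2 are dark on the left and lit on the right.

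The members silent in both tables numbered 25. They were GATA4, HAND1, HAND2, TBX5 and TBX18, known from heart development; SOX17 and FOXF1, from endoderm and gut mesenchyme; PAX2, SIX2 and WT1, from the kidney; PAX5, from B cells; PAX3, FOXD3 and SOX21, from neural crest and neural progenitors; PAX6, OTX2, SIX3, NKX2-2, OLIG1, OLIG2, ISL1 and POU4F1, from eye, brain, spinal cord and sensory neurons; FOXL2, from the ovary; BARX1, from stomach and face mesenchyme; and TBX3, from limb and mammary gland. None of the 4 basic helix-loop-helix factors reached 0.1 FPKM as a mean in either table, and 4 of the 7 PAX factors were silent in both. In the EZH2 table no silent member exceeded 0.05 FPKM in any library, a value reached by PAX6, and 26 were listed at 0 in all 6 libraries. In the LAT1 table the highest single value among the silent members was 0.2 FPKM, for FOXL2 in siNC replicate 2, and 14 members were listed at 0 in all 6 libraries. A listing at 0 in the EZH2 table is not always an absent transcript: UBB, a ubiquitin gene used by every cell, was listed at 0 in all 6 libraries there and at 56.72 to 69.38 FPKM in the LAT1 table.

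Silent members gave little room for a comparison. In the EZH2 series 10 of the 36 had a value above 0 in any library, and for 0 of these 10 did all 4 siEZH2 libraries lie above or below both siNC libraries, where 2.04% of 12128 genes above 0 and under 0.1 FPKM lay above and 2.79% below. The other 26, at 0 throughout, could not separate. In the LAT1 series 11 of 25 had a value above 0, of which 0 lay above siNC and 1 below, against 1.23% and 2.87% of 10207 genes. These counts are too small to set against such shares. The exception was SIX2, a factor of kidney progenitors. It stood at 0.14 and 0.1 FPKM with siNC, at 0.03 and 0 with siLAT1-2 and at 0.07 and 0 with siLAT1-3. Both siNC libraries were above the 4 siLAT1 libraries, at levels of at most about 2 reads per kilobase, where no test was made.

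Promoter sequence was given for 37 of the 56 members by RefSeq (GRCh38.p14). The 250 bases before the gene start held a median of 22 CG dinucleotides over these members, with a range of 7 to 45, against 17 over 15841 protein-coding promoters. Their median GC content was 65.6%, against 62%. More CG than the median of all promoters was present in 24 of the 37, and 4 had at least 33, a count reached by 10.4% of all promoters. The motif searched was CG, which reads the same on both strands, and these counts are a description with no test. The 17 matched members silent in both tables had a median of 20 CG and the 13 expressed in the LAT1 table a median of 24, with overlapping ranges of 7 to 37 and 13 to 37.

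**Figure D2:**
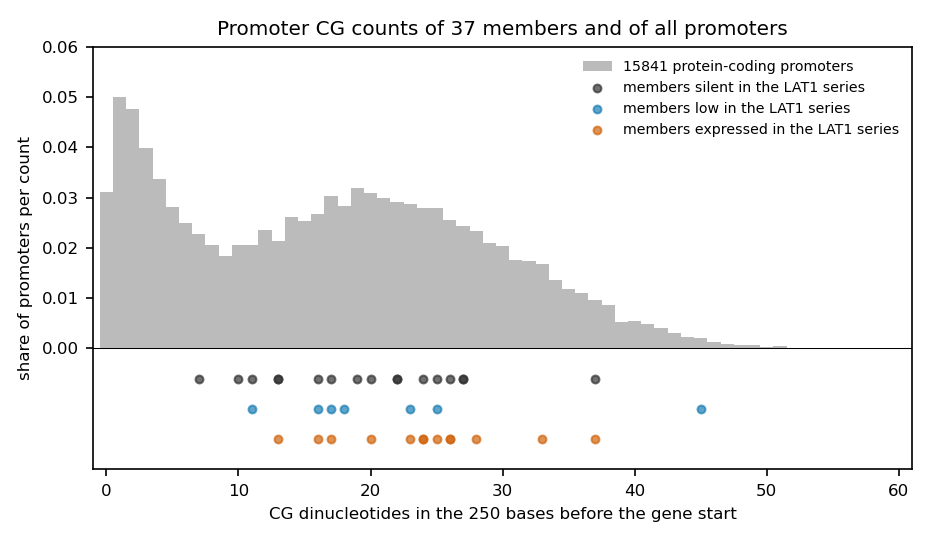
Number of CG dinucleotides in the 250 bases before the gene start (horizontal axis): grey bars give the share of 15841 protein-coding promoters at each count, and points below the axis are the 37 matched members by their class in the LAT1 table. The silent, low and expressed members spread over overlapping ranges.

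The promoter windows of 6 members are printed to show what such CG-rich stretches look like, with each CG in capitals. The 3 highest by mean FPKM over both tables were FOXA1 (chr14:37595250-37595499, minus strand, 26 CG, 67.2% GC), MSX2 (chr5:174724332-174724581, plus strand, 17 CG, 55.6% GC) and FOXC1 (chr6:1609665-1609914, plus strand, 37 CG, 76.8% GC). Of the matched members silent in both tables, the 3 with the most CG were POU4F1 (chr13:78603553-78603802, minus strand, 37 CG, 71.2% GC), ISL1 (chr5:51383198-51383447, plus strand, 27 CG, 65.2% GC) and PAX5 (chr9:37034269-37034518, minus strand, 27 CG, 69.6% GC). The latter were picked for their CG, so their likeness to the expressed members is fixed by that choice, and other silent members have fewer, down to 10 in PAX2 and 7 in OTX2. Each window reads 5′ to 3′ on the gene's strand and ends at the base before the start.
FOXA1: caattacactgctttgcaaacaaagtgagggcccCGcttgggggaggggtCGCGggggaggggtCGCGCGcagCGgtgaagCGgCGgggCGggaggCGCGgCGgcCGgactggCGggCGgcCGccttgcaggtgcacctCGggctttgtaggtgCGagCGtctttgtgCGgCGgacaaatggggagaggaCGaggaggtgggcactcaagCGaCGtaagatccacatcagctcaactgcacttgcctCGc
MSX2: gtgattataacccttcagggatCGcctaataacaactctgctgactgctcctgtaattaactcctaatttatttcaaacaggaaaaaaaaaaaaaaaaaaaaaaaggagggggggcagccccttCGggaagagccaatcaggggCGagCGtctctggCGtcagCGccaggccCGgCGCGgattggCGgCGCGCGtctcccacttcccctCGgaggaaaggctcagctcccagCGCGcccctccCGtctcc
FOXC1: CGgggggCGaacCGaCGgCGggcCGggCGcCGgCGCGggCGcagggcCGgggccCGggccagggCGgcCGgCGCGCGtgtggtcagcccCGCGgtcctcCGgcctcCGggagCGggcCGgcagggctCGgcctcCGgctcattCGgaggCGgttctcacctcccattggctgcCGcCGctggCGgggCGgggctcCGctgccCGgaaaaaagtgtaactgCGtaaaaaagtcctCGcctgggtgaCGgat
POU4F1: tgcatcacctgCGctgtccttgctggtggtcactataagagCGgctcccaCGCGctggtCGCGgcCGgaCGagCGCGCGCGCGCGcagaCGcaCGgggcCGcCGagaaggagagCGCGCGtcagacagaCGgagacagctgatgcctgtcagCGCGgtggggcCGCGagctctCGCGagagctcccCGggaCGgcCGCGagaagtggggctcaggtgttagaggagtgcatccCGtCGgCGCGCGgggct
ISL1: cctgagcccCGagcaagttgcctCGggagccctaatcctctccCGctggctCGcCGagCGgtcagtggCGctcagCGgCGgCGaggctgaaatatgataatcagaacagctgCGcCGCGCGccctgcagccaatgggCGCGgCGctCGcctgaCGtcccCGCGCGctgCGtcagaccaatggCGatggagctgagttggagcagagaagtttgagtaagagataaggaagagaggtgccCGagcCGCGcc
PAX5: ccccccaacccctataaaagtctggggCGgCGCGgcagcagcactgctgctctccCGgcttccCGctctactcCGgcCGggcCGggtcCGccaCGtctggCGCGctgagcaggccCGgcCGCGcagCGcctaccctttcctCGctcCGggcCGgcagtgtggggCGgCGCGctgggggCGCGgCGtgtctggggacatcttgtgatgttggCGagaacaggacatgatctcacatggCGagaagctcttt

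FOXC1 and POU4F1 carry the same number of CG dinucleotides in these windows, 37, and 5.06% of all promoters have as many. FOXC1 was at 3.45 FPKM or more in every library, and POU4F1 was listed at 0 in all 12. MSX2, the highest member of the EZH2 table, has the fewest of the 6, at the median of all promoters.

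With EZH2 silenced, 0 of the 11 members that could be tested were called higher. The test covered genes that averaged 1 FPKM or more in the table, so the 36 silent and 9 low members were not in it. Of the 11, 0 were higher, 3 lower (SOX7, PAX9 and MSX2) and 8 not called, where 30.0% of all 11585 tested genes were called, 17.0% higher and 13.0% lower. At an unadjusted p under 0.05 the number was 4, a threshold that at least 30.0% of all tested genes also passed. With siEZH2-1 alone the same 3 were called lower, where 27.2% of all genes were called (15.9% higher and 11.4% lower), and with siEZH2-2 alone SOX7 and PAX9, where 24.8% were (13.9% higher and 10.9% lower). The median log2 change of the 11 was -0.11, against 0.03 over all genes tested. In 5 of the 11 (SOX7, PAX9, MSX2, MSX1 and FOXC1) all 4 siEZH2 libraries lay below both siNC libraries, an arrangement shown by 15.3% of all tested genes, and in 0 all 4 lay above, as in 25.1% of all genes.

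SOX7, an F-group SOX factor of endothelium and early endoderm, had the largest change. It stood at 5.86 and 6.77 FPKM with siNC, at 2.73 and 2.62 with siEZH2-1 and at 3.92 and 4.51 with siEZH2-2. The 3 groups did not overlap, with siEZH2-1 lowest. The level with siEZH2-1 was 42.4% of siNC and with siEZH2-2 66.7%. On the log2(FPKM + 1) scale, which understates changes of low genes, the mean change was -0.74 ± 0.0817 SE (95% interval -0.93 to -0.54, limma adjusted p = 0.00154). By siRNA it was -0.99 (limma adjusted p = 0.00102) and -0.49 (limma adjusted p = 0.0126). The mean change was called with any one library left out, with adjusted p at most 0.0132, whereas that of siEZH2-2 alone was not called without siNC replicate 2 (limma adjusted p = 0.0652) or siEZH2-2 replicate 1 (limma adjusted p = 0.0617).

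PAX9, a paired-box factor of pharyngeal pouch, tooth and squamous epithelium of the esophagus and tongue, was the second. Its levels were 6.26 and 5.91 FPKM with siNC, 3.99 and 3.68 with siEZH2-1 and 4.66 and 5.06 with siEZH2-2. Here too the groups were separate, in the order siNC, siEZH2-2, siEZH2-1. The mean log2 change was -0.41 ± 0.0658 SE (95% interval -0.57 to -0.26, limma adjusted p = 0.00571), with -0.55 for siEZH2-1 (limma adjusted p = 0.0037) and -0.27 for siEZH2-2 (limma adjusted p = 0.0421). Without siNC replicate 1 the mean change was -0.38 (limma adjusted p = 0.0552). The call for siEZH2-2 alone was lost whichever library was left out, with adjusted p from 0.0651 to 0.199.

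MSX2, a homeobox repressor of skull, tooth and limb development, read 9.61 and 8.99 FPKM with siNC, 7.23 and 7.55 with siEZH2-1 and 8.06 and 7.61 with siEZH2-2. All 4 siEZH2 libraries were below both siNC libraries, and the siRNA groups lay side by side. The mean log2 change was -0.26 ± 0.0578 SE (95% interval -0.40 to -0.12, limma adjusted p = 0.0187), with -0.30 for siEZH2-1 (limma adjusted p = 0.0211) and -0.22 for siEZH2-2 (limma adjusted p = 0.0548). The mean change was not called without siNC replicate 1 (limma adjusted p = 0.149), siNC replicate 2 (limma adjusted p = 0.0511) or siEZH2-1 replicate 1 (limma adjusted p = 0.0534), nor with no filter on low genes (limma adjusted p = 0.0543). The call of siEZH2-1 alone was lost without siNC replicate 1, siEZH2-1 replicate 1 or siEZH2-1 replicate 2 (adjusted p 0.129, 0.0973 and 0.0852). Treating the 4 siEZH2 libraries as a single group ended the calls of SOX7, PAX9 and MSX2 (limma adjusted p = 0.0537, 0.0704 and 0.0645).

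MSX1, the paralogue of MSX2, measured 3.14 and 3.74 FPKM with siNC, 2.67 and 2.72 with siEZH2-1 and 2.98 and 2.89 with siEZH2-2. Its 4 siEZH2 libraries were below siNC, and the mean log2 change of -0.22 was not called (95% interval -0.40 to -0.03, limma adjusted p = 0.0784), nor were -0.26 and -0.17 for the single siRNAs. FOXC1, a forkhead factor of mesoderm and eye, gave 4.05 and 4.41, 3.45 and 3.91, and 3.64 and 4.02 FPKM in the same order of groups. Its siEZH2 libraries were also below siNC, with a mean log2 change of -0.14 (95% interval -0.32 to 0.04, limma adjusted p = 0.212) and changes of -0.16 and -0.12 by siRNA. FOXF2, the forkhead gene next to FOXC1 with no protein-coding gene between them, was listed at 0 in all 6 libraries of this series.

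IRX3 and IRX5, neighbouring Iroquois homeobox genes that pattern heart, limb and neural tube, were not called against siNC with either siRNA. IRX3 was at 7.0 and 8.42 FPKM with siNC, 6.90 and 6.74 with siEZH2-1 and 9.43 and 9.44 with siEZH2-2. The siEZH2-2 libraries were the highest and the siEZH2-1 libraries the lowest of the 6. Log2 changes were -0.15 for siEZH2-1 (limma adjusted p = 0.24), 0.27 for siEZH2-2 (limma adjusted p = 0.0695, and 0.0316 without siNC replicate 2) and 0.06 for their mean (95% interval -0.12 to 0.24, limma adjusted p = 0.594). IRX5 read 1.45 and 1.67, 1.45 and 1.60, and 2.03 and 2.32 FPKM in the same order. Its siEZH2-2 libraries were above the other 4, and its changes of -0.02, 0.31 (limma adjusted p = 0.0612) and 0.15 for the mean (95% interval -0.06 to 0.35, limma adjusted p = 0.234) were not called.

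The other 4 tested members overlapped between groups and were not called. SOX9, a factor of cartilage, gut crypts and epithelial progenitors, read 6.35 and 6.32 FPKM with siNC, 7.14 and 6.28 with siEZH2-1 and 6.93 and 6.73 with siEZH2-2, a mean log2 change of 0.08 (95% interval -0.07 to 0.24) with 0.07 and 0.09 by siRNA. FOXA1, a pioneer forkhead factor of endoderm and luminal epithelia, read 1.19 and 1.11, 0.95 and 1.05, and 1.05 and 1.16 FPKM, a mean of -0.07 (95% interval -0.26 to 0.13) with -0.10 and -0.03. GATA6, an endoderm and heart factor, read 1.02 and 1.37, 1.03 and 1.00, and 1.00 and 1.07 FPKM, a mean of -0.11 (95% interval -0.34 to 0.12) with -0.12 and -0.10. MEIS2, a TALE homeobox cofactor of HOX and PBX proteins, read 2.16 and 2.00, 2.11 and 1.96, and 1.87 and 2.07 FPKM, a mean of -0.04 (95% interval -0.22 to 0.14) with -0.02 and -0.05. The widest of these intervals, that of GATA6, reaches -0.34 log2.

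**Figure D3:**
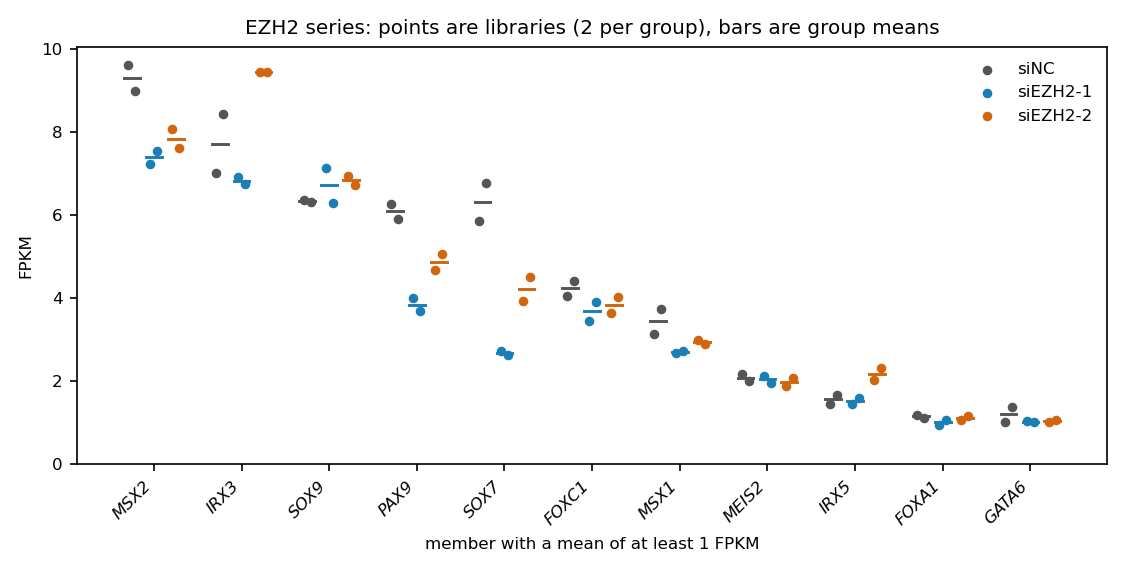
FPKM of the 11 members averaging 1 FPKM or more in the EZH2 series; points are single libraries (2 per group), short bars are group means, and colours are the 3 groups. SOX7, PAX9 and MSX2 lie lower with both siRNAs than with siNC, and IRX3 lies highest with siEZH2-2.

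Among the 9 low members of the EZH2 series, 1 had groups that did not overlap, where 19.4% of all genes from 0.1 to under 1 FPKM did so. This was DLX2, a homeobox gene of forebrain and jaw, at 0.32 and 0.31 FPKM with siNC, 0.22 and 0.22 with siEZH2-1 and 0.16 and 0.20 with siEZH2-2. Its siEZH2 libraries were all below siNC, and with the filter lowered to 0.1 FPKM its mean log2 change was -0.13 (95% interval -0.29 to 0.02, limma adjusted p = 0.217). DLX1, the adjacent gene, read 0.20 and 0.22, 0.38 and 0.20, and 0.34 and 0.22 FPKM and overlapped. TBX2, a T-box repressor, stood at 0.28 and 0.31 FPKM with siNC, 0.22 and 0.32 with siEZH2-1 and 0.60 and 0.48 with siEZH2-2, highest with siEZH2-2 (log2 change 0.25 for that siRNA, limma adjusted p = 0.127). With that lower filter, 0 of the 9 were called. Over all 17668 genes at 0.1 FPKM or more 16.2% were called. That share includes the genes at 1 FPKM or more and is not one for the low range. The remaining low members were OTX1 (0.81 to 1.32 FPKM over the 6 libraries), MEIS1 (0.32 to 0.47), NKX2-5 (0.12 to 0.46), GATA2 (0.11 to 0.28), TBX15 (0.17 to 0.28) and TBX1 (0.09 to 0.13).

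The siRNAs against EZH2 differed from each other in 2 of the 11 members, SOX7 and IRX3, both higher with siEZH2-2, where 16.3% of all tested genes were called (7.40% higher and 8.86% lower with siEZH2-2). The difference was 0.50 log2 for SOX7 (95% interval 0.28 to 0.73, limma adjusted p = 0.0168) and 0.42 for IRX3 (95% interval 0.21 to 0.62, limma adjusted p = 0.0238). For PAX9 it was 0.28 (95% interval 0.10 to 0.46, limma adjusted p = 0.054) and for IRX5 0.33 (95% interval 0.10 to 0.56, limma adjusted p = 0.0664). In the remaining 7 the difference lay between -0.03 for MEIS2 and 0.09 for MSX1, and was 0.07 for MSX2 and FOXA1, 0.05 for FOXC1, 0.02 for SOX9 and 0.01 for GATA6. The siRNAs also differed in the PRC2 subunit SUZ12, which stood at 14.23 and 12.4 FPKM with siNC, 6.08 and 5.36 with siEZH2-1 and 13.64 and 15.87 with siEZH2-2. SLC7A5 read 733.01 and 777.26, 183.84 and 192.68, and 595.97 and 590.7 FPKM in the same groups. Whether either gene has a part in the difference of SOX7 or IRX3 was not tested.

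Silencing of LAT1 left 15 of 18 tested members uncalled, with IRX3 and SOX9 higher and MSX2 lower. Over all 11678 tested genes of this series 34.5% passed, 19.3% higher and 15.3% lower. At an unadjusted p under 0.05 it was 7 of the 18, a threshold that at least 34.5% of all tested genes also passed. With siLAT1-2 alone the same 3 were called in the same directions, where 32.5% of all genes were called (18.6% higher and 13.9% lower). With siLAT1-3 alone IRX3 was called higher and MSX2 and MEIS2 lower, where 31.4% were called (17.9% higher and 13.6% lower). The median log2 change of the 18 was -0.03, against 0.01 over all genes tested. All 4 siLAT1 libraries were above both siNC libraries for 3 members (IRX3, SOX9 and NKX2-5), as for 24.4% of tested genes, and below them for 4 (MSX2, DLX1, FOXA1 and PAX9), as for 16.9%. This siNC is not the one of the EZH2 series.

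IRX3 stood at 2.91 and 2.98 FPKM with siNC, at 3.92 and 3.63 with siLAT1-2 and at 4.04 and 4.18 with siLAT1-3. Both siRNAs were above siNC without overlap, at 128% and 140% of its level. The mean log2 change was 0.32 ± 0.0552 SE (95% interval 0.19 to 0.46, limma adjusted p = 0.00478), with 0.27 for siLAT1-2 (limma adjusted p = 0.0171) and 0.37 for siLAT1-3 (limma adjusted p = 0.00542). The mean change was called with any one library left out and with the siRNAs pooled. The call of siLAT1-2 alone was lost without siNC replicate 1, siNC replicate 2 or siLAT1-2 replicate 1 (adjusted p 0.085, 0.0674 and 0.088) and, narrowly, with no filter (limma adjusted p = 0.0502).

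MSX2 measured 7.01 and 6.67 FPKM with siNC, 5.55 and 5.80 with siLAT1-2 and 4.70 and 4.06 with siLAT1-3. The groups were separate, with siLAT1-3 lowest, at 83% and 64% of siNC. Its mean log2 change was -0.39 ± 0.0613 SE (95% interval -0.53 to -0.24, limma adjusted p = 0.00344), with -0.23 for siLAT1-2 (limma adjusted p = 0.0453) and -0.55 for siLAT1-3 (limma adjusted p = 0.00179). It was called with any one library left out, and not with the siRNAs pooled (limma adjusted p = 0.105). For siLAT1-2 alone the call was lost without either siNC library or either siLAT1-2 library, with adjusted p from 0.0964 to 0.194.

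SOX9 read 3.39 and 3.38 FPKM with siNC, 3.95 and 4.42 with siLAT1-2 and 3.83 and 3.81 with siLAT1-3. All 4 siLAT1 libraries were higher than siNC, and the mean log2 change was 0.19 ± 0.0578 SE (95% interval 0.05 to 0.33, limma adjusted p = 0.0442). By siRNA it was 0.24 (limma adjusted p = 0.0331) and 0.14 (limma adjusted p = 0.17). This call sat at the threshold: the mean change was not called in 5 of the 6 fits with a library left out, with siLAT1-2 replicate 1 the exception, and the adjusted p reached 0.171 without siNC replicate 2. It was also lost with quantile normalization, with no filter, with a filter at 0.1 FPKM and with the siRNAs pooled (adjusted p 0.0594, 0.114, 0.0713 and 0.146).

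NKX2-5, the cardiac homeobox factor, stood at 2.72 and 2.91 FPKM with siNC, 3.46 and 3.51 with siLAT1-2 and 4.36 and 3.14 with siLAT1-3. All siLAT1 libraries were above siNC, those of siLAT1-3 far apart. Its mean log2 change of 0.27 was not called (95% interval 0.02 to 0.52, limma adjusted p = 0.088) but was without siLAT1-3 replicate 2, at 0.36 (limma adjusted p = 0.00982). By siRNA it was 0.23 and 0.30.

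Another 3 members lay below siNC in all siLAT1 libraries without being called. FOXA1 read 15.68 and 14.23 FPKM with siNC, 13.63 and 13.53 with siLAT1-2 and 14.07 and 12.79 with siLAT1-3 (mean log2 change -0.14, 95% interval -0.26 to -0.01, limma adjusted p = 0.0888; with quantile normalization -0.16, limma adjusted p = 0.0483). DLX1 read 1.67 and 1.20, 0.98 and 1.01, and 0.97 and 0.97 FPKM (mean log2 change -0.29, 95% interval -0.54 to -0.04, limma adjusted p = 0.0717; without siNC replicate 2, 0.0492). PAX9 read 3.11 and 3.15, 2.94 and 2.42, and 2.99 and 2.58 FPKM (mean log2 change -0.15, 95% interval -0.34 to 0.05, limma adjusted p = 0.207). For each of the 3 the changes with the single siRNAs, -0.13 and -0.14, -0.28 and -0.30, and -0.17 and -0.13, were close to each other.

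The remaining 11 tested members overlapped between siLAT1 and siNC. SOX7 was at 7.80 and 7.14 FPKM with siNC, 6.16 and 6.29 with siLAT1-2 and 7.29 and 6.15 with siLAT1-3, where 1 siLAT1-3 library lay inside the siNC range (mean log2 change -0.18, 95% interval -0.35 to -0.02, limma adjusted p = 0.0842, and 0.0256 without that library). FOXF2, a factor of gut mesenchyme, read 7.47 and 6.96, 5.60 and 6.41, and 6.54 and 7.33 FPKM (-0.14, 95% interval -0.30 to 0.02), with -0.23 and -0.05 by siRNA. FOXC1 read 8.06 and 7.21, 8.05 and 8.40, and 7.76 and 7.59 FPKM (0.05, 95% interval -0.07 to 0.18). FOXC1 and its neighbour FOXF2 were thus at similar levels in this series, and the first was expressed and the second listed at 0 in the EZH2 series.

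GATA2, a factor of blood progenitors and endothelium, read 3.81 and 3.85 FPKM with siNC, 3.77 and 3.81 with siLAT1-2 and 3.04 and 3.63 with siLAT1-3 (mean log2 change -0.09, 95% interval -0.25 to 0.08). GATA6 read 6.39 and 5.97, 5.75 and 5.30, and 6.47 and 6.65 FPKM, lower with siLAT1-2 and higher with siLAT1-3 than siNC (-0.03, 95% interval -0.15 to 0.09; -0.14 and 0.07 by siRNA). MSX1 read 3.09 and 3.61, 3.62 and 2.89, and 4.05 and 4.03 FPKM (0.09, 95% interval -0.12 to 0.30), highest with siLAT1-3. In the EZH2 series MSX1 and MSX2 lay on the same side of siNC, and in the LAT1 series the mean of MSX1 was above its siNC and that of MSX2 below.

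MEIS2 stood at 1.74 and 1.48 FPKM with siNC, 1.82 and 1.79 with siLAT1-2 and 1.10 and 1.11 with siLAT1-3. Both siLAT1-3 libraries were the lowest of the 6 and both siLAT1-2 libraries the highest. The log2 change was 0.11 with siLAT1-2 (limma adjusted p = 0.419), -0.31 with siLAT1-3 (limma adjusted p = 0.0434) and -0.10 for the mean (95% interval -0.29 to 0.09, limma adjusted p = 0.369). The call for siLAT1-3 was lost with any one library left out, with adjusted p from 0.0671 to 0.201.

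A set of 5 members stood close to the 1 FPKM filter. OTX1, a forebrain homeobox factor, read 1.35 and 1.15 FPKM with siNC, 1.05 and 1.06 with siLAT1-2 and 1.42 and 1.27 with siLAT1-3 (mean log2 change -0.03, 95% interval -0.24 to 0.17). TBX15, of skeleton and fat, read 1.01 and 0.94, 0.91 and 1.01, and 1.44 and 1.15 FPKM (0.10, 95% interval -0.12 to 0.33). GBX2, of the hindbrain boundary, read 1.04 and 0.93, 0.97 and 0.56, and 1.17 and 1.54 FPKM (0.03, 95% interval -0.27 to 0.34), the widest spread of these. LHX2, of cortex and hair follicle, read 0.90 and 1.20, 0.90 and 0.87, and 1.19 and 1.08 FPKM (-0.03, 95% interval -0.26 to 0.21). IRX5 fell just under the filter with a mean of 0.977 FPKM, at 1.12 and 0.76, 0.72 and 0.97, and 1.17 and 1.12 FPKM. All of them overlapped between groups, and IRX5 did not show the change of its neighbour IRX3 (log2 change 0.04 with the filter at 0.1 FPKM, 95% interval -0.23 to 0.31). The difference between IRX3 and IRX5 was not tested.

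**Figure D4:**
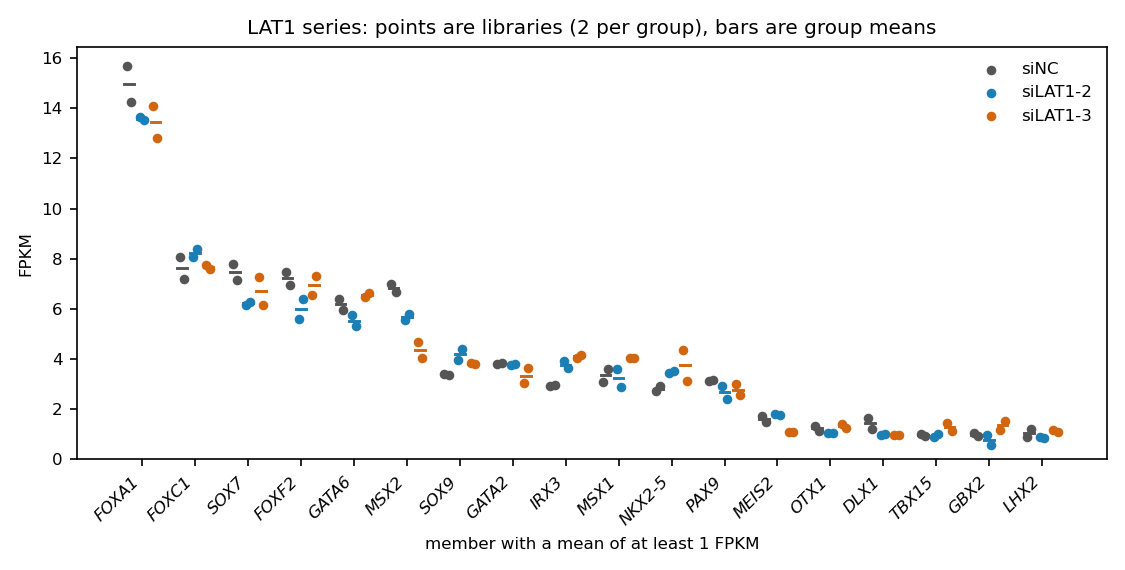
FPKM of the 18 members averaging 1 FPKM or more in the LAT1 series; points are single libraries (2 per group), short bars are group means, and colours are the 3 groups. MSX2 steps down from siNC over siLAT1-2 to siLAT1-3, IRX3 and SOX9 lie above siNC with both siRNAs, and MEIS2 is lower with siLAT1-3.

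None of the 13 low members of the LAT1 series had groups that did not overlap, where 14.3% of genes in this range did. With the filter at 0.1 FPKM 0 of the 13 were called. Over all 18544 genes passing that filter 18.6% were called, a share that again includes the genes at 1 FPKM or more. The 13 low members ranged from TBX2 (0.06 to 0.19 FPKM over the 6 libraries), FOXC2 (0.04 to 0.18), PAX8 (0.09 to 0.21) and EN1 (0.08 to 0.22) over EN2 (0.16 to 0.27), PAX7 (0.22 to 0.39), ZIC1 (0.15 to 0.40), DLX2 (0.21 to 0.41), FOXA2 (0.28 to 0.60) and TBX1 (0.16 to 0.63) to MEIS1 (0.56 to 0.68), DLX5 (0.53 to 0.98) and IRX5. TBX1, a T-box factor of the pharyngeal arches, gave 0.26 and 0.51 FPKM with siNC, 0.16 and 0.18 with siLAT1-2 and 0.46 and 0.63 with siLAT1-3. It was lowest with siLAT1-2, and the difference between the siRNAs was 0.40 log2 (95% interval 0.09 to 0.71, limma adjusted p = 0.103).

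The siRNAs against LAT1 differed in 3 of the 18 members, where 25.5% of all tested genes were called (12.4% higher and 13.1% lower with siLAT1-3). GATA6 was higher with siLAT1-3 than with siLAT1-2 by 0.21 log2 (95% interval 0.07 to 0.35, limma adjusted p = 0.0398). MEIS2 was lower by a difference of -0.41 (95% interval -0.63 to -0.19, limma adjusted p = 0.0181) and MSX2 by -0.31 (95% interval -0.48 to -0.14, limma adjusted p = 0.0191). For IRX3 the difference was 0.10 (95% interval -0.05 to 0.25) and for SOX9 -0.10 (95% interval -0.26 to 0.06). The largest difference that was not called was 0.42 for GBX2 (95% interval 0.07 to 0.77, limma adjusted p = 0.0817).

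Marker levels of the same libraries are given beside these results. In the LAT1 series the summed level of the 7 squamous markers was 654.8 to 661.6 FPKM with siNC. It was 543.6 to 557.3 with siLAT1-2 and 608.7 to 623.9 with siLAT1-3, so that the groups were separate. Against siNC, 5 of the 7 were called with siLAT1, where 34.5% of all tested genes were called. In the EZH2 series the sum was 579.9 to 622.7 FPKM with siNC, 551.8 to 554.9 with siEZH2-1 and 530.7 to 580.9 with siEZH2-2, which overlapped siNC. Of the 7, 2 were called with siEZH2, where 30.0% of all tested genes were called. The 6 neural markers, of which SYT1 was the highest, summed to 1.37 to 1.52, 1.86 to 1.9 and 1.91 to 2.12 FPKM in the EZH2 series and to 2.04 to 2.1, 3.06 to 3.29 and 2.59 to 3 in the LAT1 series, above siNC without overlap. SYT1 was the only one at 1 FPKM or more in either table, so the others were not tested. SYT1 was not called with siEZH2 and was called with siLAT1. The 6 fibroblast markers summed to 0.96 to 1.18 FPKM with the siNC of the EZH2 series. Their sum was 1.13 to 1.39 with siEZH2-1, which overlapped siNC, and 1.49 to 1.52 with siEZH2-2, which lay above it. COL1A2 and DCN were listed at 0 in all libraries of that series. For the LAT1 libraries the sum was 2.09 to 2.19 with siNC, 2.37 to 2.53 with siLAT1-2 and 2.54 to 2.55 with siLAT1-3. Both siLAT1 groups thus lay above siNC without overlap, as the neural sums did. COL1A1, the only fibroblast marker at 1 FPKM or more, was not called with siEZH2 or siLAT1. The part of these marker levels in the members' changes was not tested.

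Several members stood at different levels in the control cells of the 2 series. Of 10 members at 1 FPKM or more in both siNC groups, a filter chosen after the values were seen, 2 (FOXA1 and GATA6) were at least 4-fold higher in the LAT1 table on the log2(FPKM + 0.1) scale and 0 in the EZH2 table. Over all 10730 genes at that level in both, the shares were 0.932% and 0.205%. GATA2, NKX2-5 and DLX1 were also more than 4-fold higher in the LAT1 table, and FOXF2 and LHX2 were listed at 0 in the other. All of these reached 1 FPKM in the LAT1 siNC only, so they are given as values and not counted. The tables were normalized separately and no test was made; cells, library preparation, sequencing and processing may differ by series and cannot be told apart.

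FOXA1 had a mean of 1.15 FPKM in the siNC of the EZH2 series and of 15.0 in that of the LAT1 series, a 13-fold difference. In the same order GATA2 had means of 0.185 and 3.83 FPKM (20.7-fold), NKX2-5 of 0.25 and 2.82 (11.3-fold), DLX1 of 0.21 and 1.44 (6.83-fold) and GATA6 of 1.2 and 6.18 (5.17-fold). FOXF2 and LHX2 were listed at 0 in the EZH2 series and had means of 7.21 and 1.05 FPKM in the other siNC, so no fold is given. FOXF2 was 1 of 33 genes listed at 0 in all 6 libraries of the EZH2 series with a mean of 3 FPKM or more in the LAT1 series, and 0 genes showed the reverse. UBB is another of these genes.

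Other members ran the opposite way. IRX3 had a siNC mean of 7.71 FPKM in the EZH2 series and of 2.95 in the LAT1 series, PAX9 6.09 and 3.13, and SOX9 6.33 and 3.38. MSX1 was level at 3.44 and 3.35 FPKM, and SOX7 at 6.32 and 7.47. Over all 56 members the siNC mean was higher in the LAT1 table for 30, higher in the EZH2 table for 10, equal for 1 (DLX2) and 0 in both for 15. Some of these differences lie near 0 FPKM, such as 0 against 0.005 for TBX3. Of all 12423 genes at 1 FPKM or more in either siNC, 42% were higher in the LAT1 table. That share leaves out genes under 1 FPKM in both, so it cannot be set against the count of 30.

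**Figure D5:**
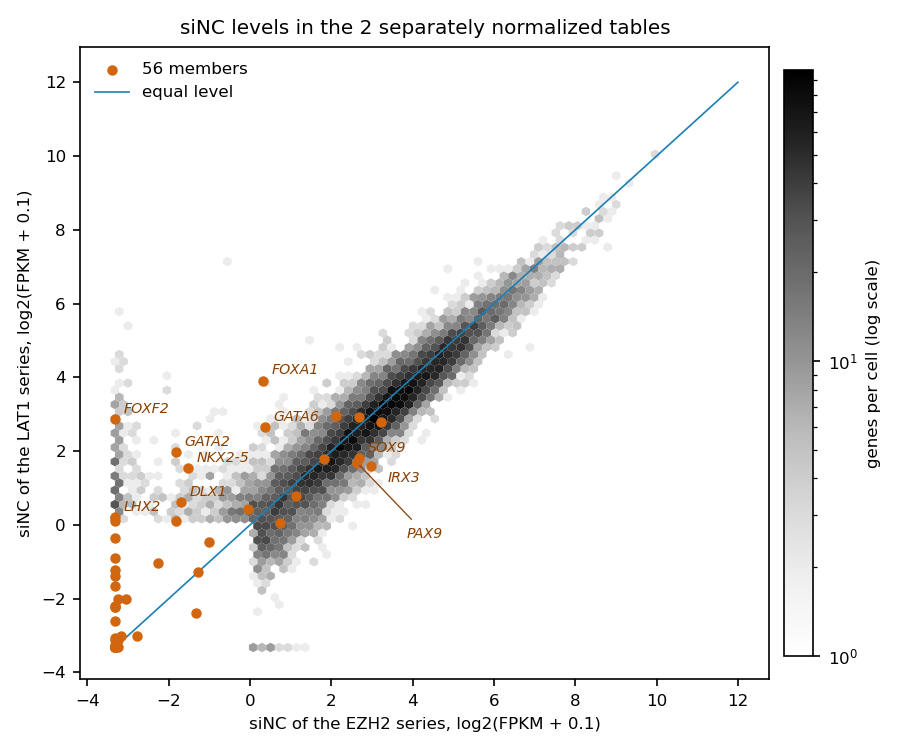
Mean level with siNC in the EZH2 series (horizontal) and in the LAT1 series (vertical), both as log2(FPKM + 0.1); grey cells count the 12423 genes at 1 FPKM or more in either, orange points are the 56 members, and the line marks equal level. FOXF2, GATA2, FOXA1, NKX2-5, LHX2, DLX1 and GATA6 stand above the line, and IRX3, PAX9 and SOX9 below it.

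Silent members were also counted by family, with no test between families of such small size. Of the 22 other homeobox factors, 12 were silent in the EZH2 table and 7 in the LAT1 table. The 8 forkhead factors had 6 and 3, the 7 PAX factors 6 and 4 and the 2 C2H2 factors 2 and 1. The 3 GATA, 4 SOX, 6 T-box and 4 basic helix-loop-helix factors had the same number silent in both, 1, 2, 3 and 4. Over all protein-coding symbols, 44.3% and 40.4% were silent. In all, 8 members were silent in the EZH2 table and low in the LAT1 table (FOXA2, FOXC2, PAX7, PAX8, EN1, EN2, DLX5 and ZIC1), 3 went from silent to expressed (FOXF2, LHX2 and GBX2) and 5 from low to expressed (GATA2, NKX2-5, TBX15, DLX1 and OTX1). IRX5 alone was expressed in the EZH2 table and low in the other, and 10 members were expressed in both. Adjacent member genes did not always share a class. FOXF2 and FOXC1 differed in the EZH2 table, where FOXF2, like UBB, was listed at 0 in all 6 libraries. DLX1 and DLX2 differed in the LAT1 table, as did IRX3 and IRX5, with IRX5 just under the 1 FPKM limit. The pairs OLIG1 and OLIG2, SIX2 and SIX3, and TBX3 and TBX5 were silent in both.

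Genes of the Polycomb complexes were called in both series and in both directions. With siEZH2, where 30.0% of all tested genes were called, 6 of 13 tested PRC2 genes rose and 3 fell, the siRNA target EZH2 among the latter, and of 25 genes of Polycomb repressive complex 1 (PRC1), the complex that binds and ubiquitinates Polycomb chromatin, 4 were higher and 3 lower. The largest called changes were EZH2, KDM2B (log2 change 0.84), CBX2 (0.55) and BMI1 (-0.53). KDM2B recruits PRC1 to unmethylated CpG islands, CBX2 is a chromatin reader of PRC1 and BMI1 a partner of its ubiquitin ligase. EED (log2 change -0.09, limma adjusted p = 0.206) and EZH1 (0.17, limma adjusted p = 0.0917) were not called, and SUZ12 was called lower over both siRNAs (-0.48, limma adjusted p = 0.01), although siEZH2-2 was not below siNC. With siLAT1, where 34.5% of all tested genes were called, 8 of 13 PRC2 genes were higher and 0 lower, and 9 of 25 PRC1 genes higher and 2 lower, led by KDM2B (0.71), PCGF6 (0.53), CBX2 (0.41) and CBX6 (0.40). Of the demethylases of H3K27, KDM6B was higher in both series (0.44 and 0.38), and KDM6A was lower with siLAT1 (-0.19) and not called with siEZH2 (-0.12).

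RNAs from the opposite strand could not be separated from the members, since the strand setting is not stated. Of the antisense RNAs named after a member, GATA6-AS1 alone reached 0.1 FPKM in any library, at 0.03 to 0.13 FPKM in the EZH2 series and 0.13 to 0.45 in the LAT1 series. These levels are low beside those of GATA6, 1.00 to 1.37 and 5.30 to 6.65 FPKM.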

How the data were processed

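RNA sequencing of 12 KYSE510 libraries was used; the 2 CUT&Tag samples were not analysed here. The authors deposited FPKM to 2 decimals, each series in its own table; the unit was taken from the values, whose columns sum to 245634 to 275399. Per the submitters' processing notes, the tools were Bowtie, Bowtie2, STAR, Trim Galore, Picard and SEACR, with hg19 and hg38 as builds and no role given for any. The counter, gene lengths and strand setting are not given in the sources used here. The members, lists and tests were chosen with earlier results of these data known.

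For each table, limma 3.58.1 (limma-trend, R 4.3.3) was run on log2(FPKM + 1) of genes averaging 1 FPKM or more, with a coefficient for each of the 3 groups. siNC was subtracted from the average of the siRNA pair and from each siRNA, and the siRNAs of a pair were subtracted from each other. Tests were two-sided, p-values were adjusted by Benjamini-Hochberg over every gene tested and called under 0.05, and intervals are at 95%. Permuting 4 libraries against 2 exactly gives no p below 0.0667, so calls rest on a spread pooled across genes. The p-values set a difference between groups against how far the libraries of a group differ, a spread that could be technical only. The siNC titles of the LAT1 series share a replicate number, so the numbers in their descriptions were used. The procedure was tested on simulated data. Depth was recovered from steps of 1 read among short RNA genes, where 86.1% to 92.2% of values were whole within 0.12 reads; it is an estimate, and intervals do not cover counting error.

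Members averaging 1 FPKM or more in either table were named with each library's value where tested, low members with their range and, where groups did not overlap, with each library, and silent members by name. TBX2, DLX1 and TBX1 of the low class were given by library after their values were seen. Promoter windows are from RefSeq; GATA4, SOX7, SOX9, SOX17, FOXA2, FOXC2, FOXF1, NKX2-5, SIX3, TBX2, TBX3, TBX15, OLIG1, OLIG2, EN1, DLX5, IRX3, IRX5 and BARX1 had no entry in the table used. Other settings tried were 0.1 as the pseudocount, 0.1 FPKM as the filter, no filter, quantile normalization, pooled siRNAs, a replicate block, leaving out each library, and other class thresholds. Tables were made with Python 3.11.15.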

Additional observations from a re-analysis of the deposited data

Results flagged for a closer look

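A total of 5 members differed between the 2 siRNAs against one target by the test of that difference, with limma. In the EZH2 series, siEZH2-2 minus siEZH2-1 was 0.42 log2 for IRX3 and 0.50 for SOX7. The IRX3 difference was not called without either library of siEZH2-1 or either library of siEZH2-2 (adjusted p 0.0738 to 0.12). The SOX7 difference lost its call when siEZH2-1 replicate 1, siEZH2-1 replicate 2 or siEZH2-2 replicate 2 was left out (adjusted p 0.0636, 0.0921 and 0.0838).

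In the LAT1 series, siLAT1-3 minus siLAT1-2 was 0.21 log2 for GATA6, -0.41 for MEIS2 and -0.31 for MSX2. The GATA6 difference was not called whichever library was left out (adjusted p 0.0538 to 0.165). That of MEIS2 was lost without either siLAT1-2 or either siLAT1-3 library (adjusted p 0.066 to 0.0813), and that of MSX2 without siLAT1-2 replicate 1, siLAT1-2 replicate 2 or siLAT1-3 replicate 2 (adjusted p 0.0564, 0.0863 and 0.0786).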

How the results depend on the processing

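With both siRNAs pooled, the members called fell to 0 for siEZH2 and 1 for siLAT1 against siNC (all genes, 1153 and 1309 called). With no filter 0 were called for siEZH2-2 and siLAT1-2 against siNC and for both comparisons between siRNAs; with a filter at 0.1 FPKM, 1 for siEZH2-2 and 1 for siLAT1-2. The log2 changes of the members were the same in these fits as in the main fit, such as -0.74 for SOX7 with siEZH2 pooled. The cause of the lost calls was not tested. Quantile normalization shifted the median of all genes by at most 0.02 log2. A pseudocount of 0.1 kept these counts within 1.5 times, and other class thresholds kept the counts of silent and expressed members within 1.5 times.

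With the replicate number as a block, 1 member was called for siEZH2-2 against siNC and 1 for siEZH2-2 against siEZH2-1. The calls lost under the block were MSX2 for siEZH2-1 (adjusted p 0.0547), PAX9 for siEZH2-2 (0.0953), IRX3 between the EZH2 siRNAs (0.0538), SOX9 for siLAT1 (0.0604), MSX2 for siLAT1-2 (0.0545), MEIS2 for siLAT1-3 (0.0623) and GATA6 between the LAT1 siRNAs (0.0509). Deviations of same-numbered libraries correlated at 0.355 for siNC with siEZH2-1, at -0.339 and -0.353 for siEZH2-2 with siNC and siEZH2-1, and at 0.018 to 0.083 for the LAT1 groups. They were not above 0.1 throughout, so the numbers were not taken to pair the libraries.

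With each library left out in turn, the members called ranged from 1 to 3 for siEZH2, 2 to 3 for siEZH2-1, 0 to 1 for siEZH2-2, 0 to 2 between the EZH2 siRNAs, 2 to 3 for siLAT1, 0 to 4 for siLAT1-2, 2 to 3 for siLAT1-3 and 0 to 2 between the LAT1 siRNAs. Over all genes, 1357 to 3343 were called for siEZH2 and 2290 to 3610 for siLAT1. No called change turned its sign, but these uncalled ones did in at least 1 such fit, with the log2 ranges given. For siEZH2 against siNC, GATA6 -0.23 to 0.0034, IRX3 -0.060 to 0.18, MEIS2 -0.074 to 0.00049. For siEZH2-1 against siNC, IRX5 -0.081 to 0.043, MEIS2 -0.059 to 0.016, SOX9 -0.011 to 0.15. For siEZH2-2 against siNC, FOXA1 -0.068 to 0.0069, GATA6 -0.22 to 0.010. For siEZH2-2 against siEZH2-1, FOXC1 -0.025 to 0.12, GATA6 -0.011 to 0.039, MEIS2 -0.080 to 0.017, SOX9 -0.056 to 0.10. For siLAT1 against siNC, FOXC1 -0.018 to 0.12, GATA6 -0.074 to 0.011, GBX2 -0.052 to 0.12, OTX1 -0.099 to 0.030. For siLAT1-2 against siNC, MSX1 -0.16 to 0.089, TBX15 -0.048 to 0.026. For siLAT1-3 against siNC, FOXC1 -0.063 to 0.079, FOXF2 -0.12 to 0.021, LHX2 -0.044 to 0.099, OTX1 -0.0038 to 0.12. For siLAT1-3 against siLAT1-2, FOXA1 -0.080 to 0.048, NKX2-5 -0.12 to 0.26, PAX9 -0.060 to 0.14, SOX7 -0.015 to 0.20. Where this left a group with 1 library, that library was assumed to vary like the others, and GBX2 and LHX2 dropped below the filter in some of these fits.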
